A study of Mus musculus with 6 samples.

Results

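Histone genes are described here in the livers of male C57BL/6 mice. The mice were 8 weeks old before they were acclimatised. A group of 3 arrays came from mice given vehicle and a group of 3 from mice given Vascepa, a drug made of purified eicosapentaenoic acid as its ethyl ester. Dosing lasted 7 days in either group, and a high-fat diet for 6 weeks came after it. Members were the genes with a histone symbol (H1f, H2af, H3f, H2ac, H2bc, H3c or H4c forms, or the older Hist forms) on a probe annotated to exactly 1 gene. This gave 29 of the 22180 genes with such a probe, each read from its probe with the highest mean. No label ties the arrays of a group to different animals, and p-values therefore measure the spread between these samples alone, which may be technical.

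Histones are the proteins that package DNA. The core histones H2A, H2B, H3 and H4 form the nucleosome, and the linker histone H1 binds where DNA enters and leaves it. Replication-dependent histone genes lie in clusters, are used mainly when DNA is copied, and give mRNAs that end in a stem-loop in place of a poly(A) tail. Variant histone genes, such as those of H2A.Z, macroH2A and H3.3, lie apart and mostly give polyadenylated mRNAs throughout the cell cycle. Most hepatocytes of an adult liver do not divide, and variants are known to replace part of the replication-dependent histones in such cells.

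By their older symbols 26 members were replication-dependent, 21 of them in the Hist1 cluster and 5 in the Hist2 cluster. The other 3 were linker variants, H1f7 and H1f8, which are known from germ cells, and H1f10. Probes annotated to a single gene left out whole families. No H3 gene was a member, and H3.3 was read only by probes shared between genes. For the contrast of replication-dependent with variant histones, 10 variant genes with current names outside the symbol rule were therefore added by their older H2af symbols, among them those of H2A.Z and macroH2A. With H1f10 they gave 10 variant genes at or above the median level.

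Promoter sequences showed a feature of the 2 classes that the symbol rule did not use. The letters TATAAA, on either strand, stood in 16 of the 24 replication-dependent promoters with a RefSeq entry (66.7%), in 0 of 11 variant promoters and in 13.6% of all 32851 promoters of the same length, which ran from 250 bases before to 50 after a start. The letters CCAAT, on either strand, stood in 19 of 24 (79.2%), 7 of 11 (63.6%) and 37.4%. The motifs share no bases with each other. The 200 bases before the start are given below, 5′ to 3′, for H4c12, the brightest member, for the H2B genes H2bc3 and H2bc18, in which Vascepa replicates 2 and 3 were the highest arrays, as in H4c12, and for H1f10, the only variant member at or above the median level. They are from RefSeq, build GRCm38.p6, at chr13:21750554-21750753 (minus strand), chr13:23746534-23746733 (plus), chr3:96269500-96269699 (plus) and chr6:87981483-87981682 (minus). Capitals mark TATAAA and CCAAT, or their reverse complements.
H4c12: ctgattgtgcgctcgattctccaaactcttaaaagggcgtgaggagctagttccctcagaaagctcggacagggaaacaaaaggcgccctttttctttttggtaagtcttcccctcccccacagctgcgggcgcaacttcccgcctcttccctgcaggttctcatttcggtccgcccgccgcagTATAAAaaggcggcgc
H2bc3: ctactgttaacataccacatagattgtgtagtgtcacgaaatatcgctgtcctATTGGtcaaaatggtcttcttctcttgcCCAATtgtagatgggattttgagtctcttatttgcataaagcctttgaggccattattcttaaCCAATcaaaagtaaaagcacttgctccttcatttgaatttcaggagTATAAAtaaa
H2bc18: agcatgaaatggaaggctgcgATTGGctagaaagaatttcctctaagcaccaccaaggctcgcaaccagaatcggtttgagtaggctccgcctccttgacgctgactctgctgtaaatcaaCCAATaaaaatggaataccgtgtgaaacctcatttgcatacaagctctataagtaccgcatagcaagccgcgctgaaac
H1f10: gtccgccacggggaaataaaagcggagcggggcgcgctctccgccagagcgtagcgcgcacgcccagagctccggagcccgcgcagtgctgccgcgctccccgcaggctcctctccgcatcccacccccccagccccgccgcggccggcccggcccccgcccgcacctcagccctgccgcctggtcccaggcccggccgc
The H4c12 stretch holds TATAAA and no CCAAT, H2bc3 holds TATAAA with 3 CCAAT matches, H2bc18 holds 2 CCAAT matches alone, and H1f10 holds neither. A match is a description of these letters and not of a bound factor.

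Few of the histone genes with a probe of their own were bright in these livers. Probes shared by several histone genes were left out here, and the brightest of them had a mean of 11.02. Of the 29 members, 10 lay at or above 2.65, the median log2 level of all 41345 probes (34.5%), against 60.8% of all genes with a probe of their own. Only 5 lay above the 75th percentile of all probes, 4.34. The members just above the median were H1f10 at 3.10 and H2ac21 at 3.24, and those just below it were H2bc9 at 2.43 and H2bc12 at 2.33. H2bc9 read 1.99, 2.81 and 1.66 in vehicle and 2.10, 2.85 and 3.17 in Vascepa livers, and H2bc12 read 2.69, 1.80 and 2.44 in vehicle and 2.09, 1.74 and 3.19 in Vascepa livers. Vascepa replicate 3 was the highest array for both, and the groups overlapped. By family, 4 of 6 H2A, 2 of 8 H2B, 2 of 7 H4 and 1 of 5 replication-dependent H1 genes reached the median, with H1f10 as the 1 of 3 linker variants. The other 19 members ranged from 0.80 to 2.43. Brightness also depends on the probe, so these levels do not rank the genes by RNA amount.

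**Figure D1:**
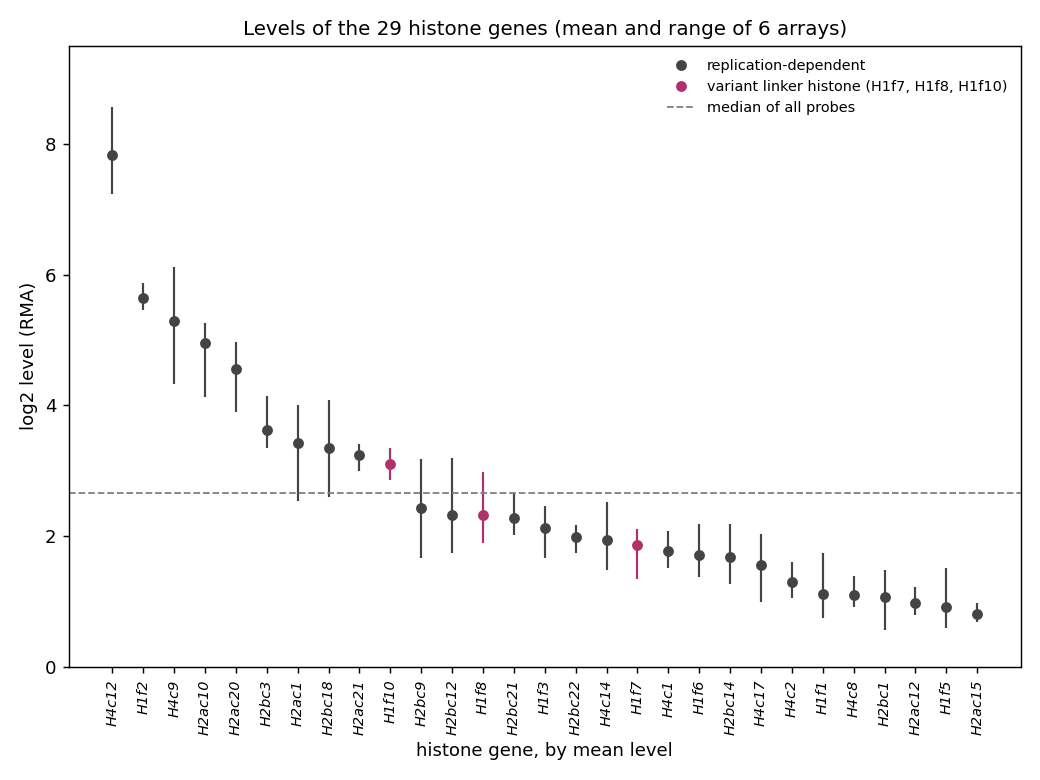
Mean log2 level (y axis, RMA) of the 29 histone genes, ordered by level, with the range over the 6 arrays as a vertical line and the median of all probes dashed. H4c12 stands highest at 7.83, 10 genes lie at or above the median of 2.65, and 19 lie below it.

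Among the tested members none passed. Limma called 0 of 13493 genes at an adjusted p under 0.05 (0% of genes), so it called 0 of the 10 members, each with an adjusted p of 0.976 or 0.977. An unadjusted p under 0.05 was reached by 362 genes (2.68%; 1.04% higher and 1.64% lower in Vascepa livers) and by 0 of the 10 members. In the means 6 members were higher in Vascepa livers and 4 lower, with a median log2 difference of 0.11. Over all genes tested 39.9% were higher and the median was −0.063. Each log2 difference given is the Vascepa mean minus the vehicle mean, and its standard error (SE) is the moderated one of limma.

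H4 genes, whose protein is the same from nearly every copy, gave opposite signs. H4c12 read 7.36, 7.87 and 7.72 on vehicle arrays 1, 2 and 3, against 7.24, 8.21 and 8.56 on Vascepa arrays 1, 2 and 3. Vascepa replicate 1 was the lowest of all 6 arrays and the other Vascepa arrays the highest, so the groups overlapped. Its difference was 0.35 ± 0.34 (SE, n = 3 against 3), with a 95% interval from −0.44 to 1.15 (limma, adjusted p = 0.976). H4c9 read 4.96, 6.11 and 5.60 in vehicle and 4.32, 4.86 and 5.89 in Vascepa livers. Its difference was −0.53 ± 0.44, with an interval from −1.54 to 0.48, and the groups overlapped here too. H4 copies are close in sequence, and binding of RNA from one copy to another's probe was not tested.

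H2A genes of the clusters also spread on both sides of 0. H2ac10 read 5.09, 5.26 and 5.17 in vehicle and 4.98, 4.13 and 5.10 in Vascepa livers, so its difference of −0.44 ± 0.27 came mainly from Vascepa replicate 2, and it was −0.14 without that array. H2ac20, of the Hist2 cluster, read 4.38, 4.47 and 4.63 in vehicle and 3.90, 4.94 and 4.97 in Vascepa livers (0.11 ± 0.30). Its lowest and highest arrays both lay in the Vascepa group, and its difference was 0.46 without Vascepa replicate 1, −0.059 without replicate 2 and −0.074 without replicate 3 of that group. H2ac21, the neighbour of H2ac20, read 3.26, 3.41 and 3.32 in vehicle and 3.21, 3.22 and 3.00 in Vascepa livers. It was the 1 member of 10 whose groups did not overlap, against 8.24% of all genes tested (3.13% higher and 5.11% lower in Vascepa livers), and its difference was −0.19 ± 0.17 (limma, adjusted p = 0.976). On a second, dimmer probe of H2ac21 alone, with a mean of 1.99, the groups did overlap. That probe read 1.81, 2.13 and 2.04 in vehicle and 1.63, 2.02 and 2.33 in Vascepa livers. H2ac1, a gene known from testis, had the largest difference of the 10 tested members at 0.64 ± 0.36. It read 2.83, 3.93 and 2.54 in vehicle and 3.51, 3.70 and 4.01 in Vascepa livers, so vehicle replicate 2 lay among the Vascepa arrays. With all arrays the unadjusted p of H2ac1 was 0.112 (limma). Leaving out vehicle replicate 2, the only vehicle array to overlap, must raise the difference, so its p is not a separate test. The difference was then 1.05 ± 0.25 (unadjusted p = 0.00380 and adjusted p = 0.894 by limma), and without vehicle replicate 3 it was 0.36.

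H2B and H1 genes closed the set. H2bc3 read 3.35, 3.47 and 3.61 in vehicle and 3.36, 3.86 and 4.14 in Vascepa livers (0.31 ± 0.24). H2bc18, of the Hist2 cluster, read 3.22, 2.91 and 3.28 in vehicle and 2.60, 3.95 and 4.09 in Vascepa livers (0.41 ± 0.38). In both genes Vascepa replicates 2 and 3 were the highest arrays. Vascepa replicate 1 lay among the vehicle arrays in H2bc3 and below all of them in H2bc18. H1f2, a linker histone that many tissues use, read 5.54, 5.87 and 5.63 in vehicle and 5.75, 5.57 and 5.46 in Vascepa livers (−0.085 ± 0.19, 95% interval from −0.51 to 0.34), and the sign turned, to 0.038, after quantile normalization. H1f10, the replication-independent linker histone H1x, read 2.86, 2.92 and 3.34 in vehicle and 3.19, 3.03 and 3.26 in Vascepa livers (0.12 ± 0.20).

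**Figure D2:**
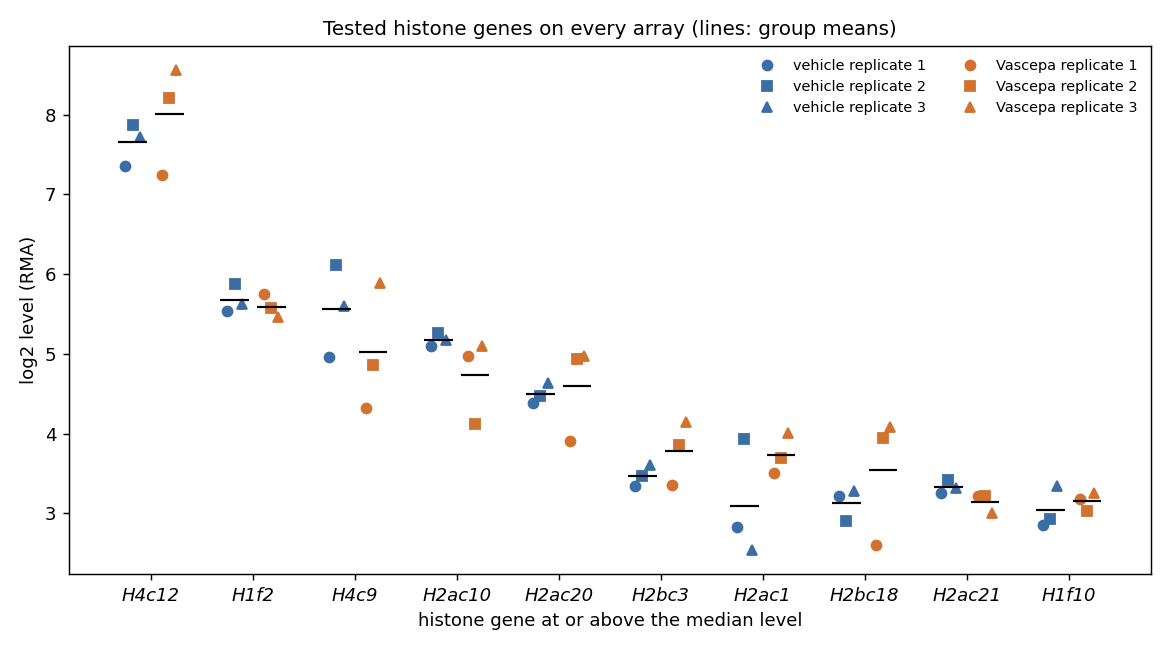
Log2 level (y axis, RMA) of the 10 histone genes at or above the median on every array, vehicle in blue and Vascepa in orange, with a marker shape for each replicate number and lines at the group means. In H4c12, H2ac20, H2bc3 and H2bc18 Vascepa replicates 2 and 3 lie above all vehicle arrays while Vascepa replicate 1 lies among or below them.

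The variant genes that lie outside the symbol rule differed in sign as well. H2ax, whose product is phosphorylated at DNA breaks, read 5.34, 5.93 and 5.70 in vehicle and 5.28, 4.999 and 5.15 in Vascepa livers. The groups did not overlap, and the difference was −0.51 ± 0.21, with an interval from −1.001 to −0.028 (unadjusted p = 0.0407 and adjusted p = 0.976 by limma). The unadjusted p was 0.062 with the replicate block, 0.121 after quantile normalization and 0.051 with the 75th percentile filter. Leaving out vehicle replicate 2 gave 0.146 and vehicle replicate 3 gave 0.106, while leaving out Vascepa replicate 2 gave 0.123 and Vascepa replicate 3 gave 0.059. In the other runs the unadjusted limma p stayed under 0.05. It was 0.033 with no filter on level, 0.026 with arrays centred on their median and 0.040 with the mean of a gene's probes. With the small nucleolar RNA average as a covariate it was 0.022. Without vehicle replicate 1 it was 0.020, and without Vascepa replicate 1 it was 0.037. The sign turned in 0 of 13 alternative runs. H2ax was the 1 gene of the 10 variants at an unadjusted p under 0.05, where 2.68% of all genes stood. H2ax is also known to give a stem-loop mRNA beside a polyadenylated one, and it counted as a variant by its older symbol.

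The H2A.Z genes, whose product marks promoters, were H2az1 and H2az2. H2az1 read 4.45, 5.16 and 4.96 in vehicle and 4.68, 5.88 and 5.17 in Vascepa livers (0.38 ± 0.33). H2az2 read 6.61, 7.16 and 6.56 in vehicle and 6.29, 6.82 and 7.13 in Vascepa livers (−0.028 ± 0.27, or 0.061 after quantile normalization). Both genes overlapped between groups. Macroh2a1, of the large H2A variant linked to silent chromatin, read 6.54, 5.78 and 6.34 in vehicle and 6.57, 6.17 and 4.60 in Vascepa livers. Its difference of −0.44 ± 0.49 rested on Vascepa replicate 3, and without it was 0.15.

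The other 5 tested variants outside the rule were dimmer, and 3 of them, H2ab1, H2ab2 and H2al2a, are known from testis. Those 3 and Macroh2a3 were the variants counted as germ cell genes. H2aj read 2.10, 3.18 and 2.92 in vehicle and 2.68, 3.00 and 3.99 in Vascepa livers (0.49 ± 0.40). Macroh2a3 read 4.41, 4.92 and 4.46 in vehicle and 4.75, 4.74 and 4.52 in Vascepa livers (0.072 ± 0.20, or −0.0043 with arrays centred on their median). H2ab2 read 3.97, 4.14 and 3.77 in vehicle and 4.52, 4.07 and 4.01 in Vascepa livers (0.24 ± 0.21). In each of these 3 genes the groups overlapped. H2ab1 read 3.83, 4.49 and 3.55 in vehicle and 3.69, 4.15 and 3.92 in Vascepa livers (−0.037 ± 0.27). H2al2a read 2.84, 2.45 and 2.55 in vehicle and 2.69, 3.14 and 2.49 in Vascepa livers (0.16 ± 0.23), and it passed the filter on level only through its Vascepa mean of 2.77, since its vehicle mean was 2.62. Neither separated the groups. Whether testis-type genes were expressed in these livers or their probes read other RNA was not tested.

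**Figure D3:**
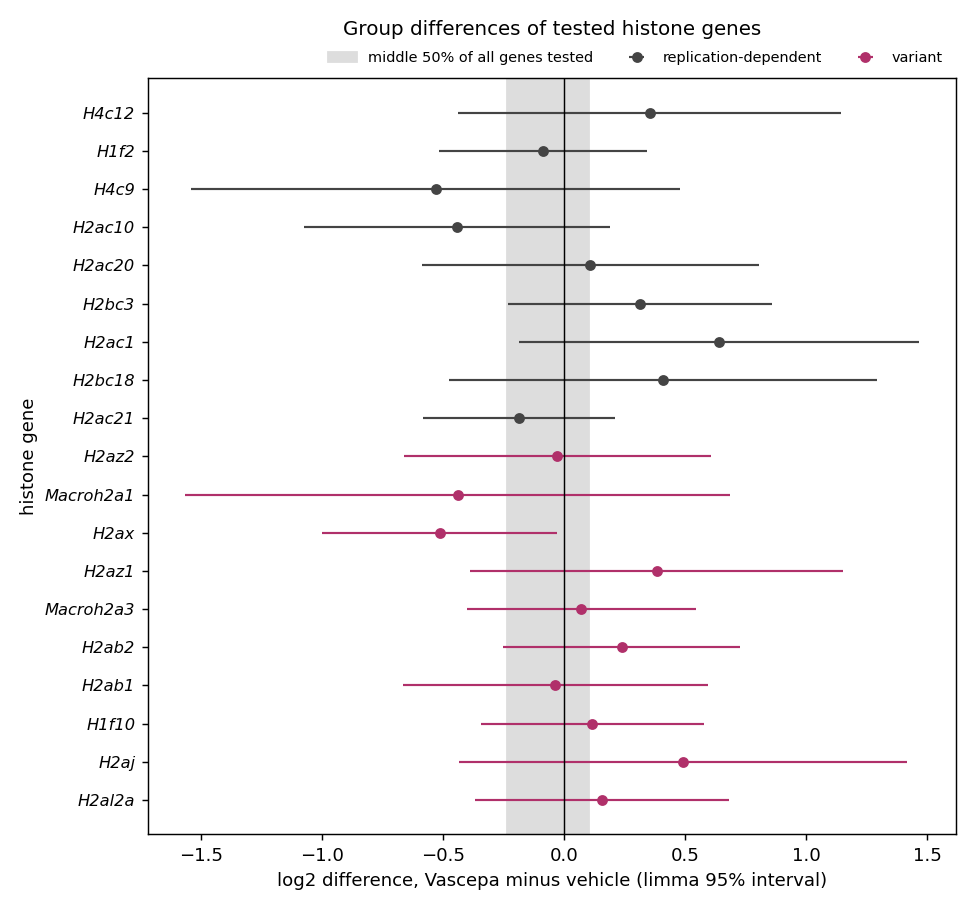
Log2 difference, Vascepa minus vehicle (x axis), of 9 replication-dependent and 10 variant histone genes at or above the median level, with limma's 95% intervals and the middle 50% of all tested genes shaded. The interval of H2ax, −1.001 to −0.028, is the only one that does not reach 0.

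Replication-dependent and variant histones did not part between the groups. Of the 9 replication-dependent genes 5 were higher in Vascepa livers and 4 lower, with a median of 0.11. Of the 10 variants 6 were higher and 4 lower, with a median of 0.094. The 6 include H2al2a, which passed the filter on level only through its Vascepa mean. Without the variants counted as germ cell genes, H2al2a among them, 3 of 6 were higher and 3 lower, with a median of 0.045. That set was chosen after seeing the data. Per array, the mean of the replication-dependent genes minus that of the variants was 0.15, 0.20 and 0.20 in vehicle and −0.11, 0.11 and 0.60 in Vascepa livers. The group means were 0.18 ± 0.029 and 0.20 ± 0.37 (SD, n = 3 each), a difference of 0.020. The vehicle arrays lay close together, while the Vascepa arrays lay on both sides of them. The replication-dependent median moved with single arrays, to 0.46 without Vascepa replicate 1, −0.059 without Vascepa replicate 2, −0.017 without Vascepa replicate 3, 0.052 without vehicle replicate 1 and 0.18 without vehicle replicate 3. The variant median was 0.0028 without vehicle replicate 1, 0.0051 without Vascepa replicate 2, 0.064 without vehicle replicate 3 and 0.20 without vehicle replicate 2. The class difference was 0.18 without Vascepa replicate 1, −0.18 without Vascepa replicate 3, 0.063 without Vascepa replicate 2 and 0.0036 without vehicle replicate 1.

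The replication-dependent genes differed more between arrays of a group than between the group means. Their mean was 4.44, 4.81 and 4.61 in vehicle and 4.32, 4.71 and 5.02 in Vascepa livers, and the group means were 4.62 and 4.69. From Vascepa replicate 1 to Vascepa replicate 3, 7 of 9 were higher, by a median of 0.79, against 43.6% of all genes tested. From vehicle replicate 1 to vehicle replicate 2, 8 of 9 were higher, by a median of 0.17, against 47.9%. Vascepa replicate 3 was the highest of the 6 arrays for 5 of the 9 genes, and for 23.0% of all genes. The variants also differed more between arrays of a group than between the group means. They averaged 4.30, 4.61 and 4.42 in vehicle and 4.43, 4.60 and 4.42 in Vascepa livers, with group means of 4.44 and 4.49. From Vascepa replicate 1 to Vascepa replicate 3, 5 of 10 variants were higher. In vehicle livers 8 of 10 variants were higher on replicate 2 than on replicate 1, by a median of 0.53. The class difference within groups was not tested.

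RNA classes without a poly(A) tail varied between the same arrays. Small nucleolar RNAs, 67 genes at or above the median, averaged 5.96, 6.86 and 6.22 in vehicle and 5.82, 6.99 and 7.54 in Vascepa livers. Of the 9 tested replication-dependent genes, only H4c12 put the 6 arrays in the same order as this average. In H1f2 Vascepa replicate 3 was the lowest array. Probes annotated to 2 genes, at least 1 of them an H3.3 gene, with means of 9.46 and 3.87, also had the order of this average. The 13 other short RNA genes of this kind averaged 6.61, 7.53 and 6.94 in vehicle and 6.40, 7.64 and 8.39 in Vascepa livers. With the small nucleolar RNA average as a covariate, the difference was 0.037 ± 0.17 in H4c12, 0.13 ± 0.27 in H2bc18, 0.15 ± 0.17 in H2bc3 and −0.54 ± 0.20 in H2ax. The sign of H2ac20 turned, to −0.12 ± 0.20. Variants moved too, Macroh2a1 to −0.0075 ± 0.26 and H2aj to 0.15 ± 0.23, and the class difference became −0.12. H4c9 went to −0.93 ± 0.21 in that fit (unadjusted p = 0.00115 and adjusted p = 0.486 by limma). A cause of the order that H4c12 shared with these RNA classes was not tested.

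**Figure D4:**
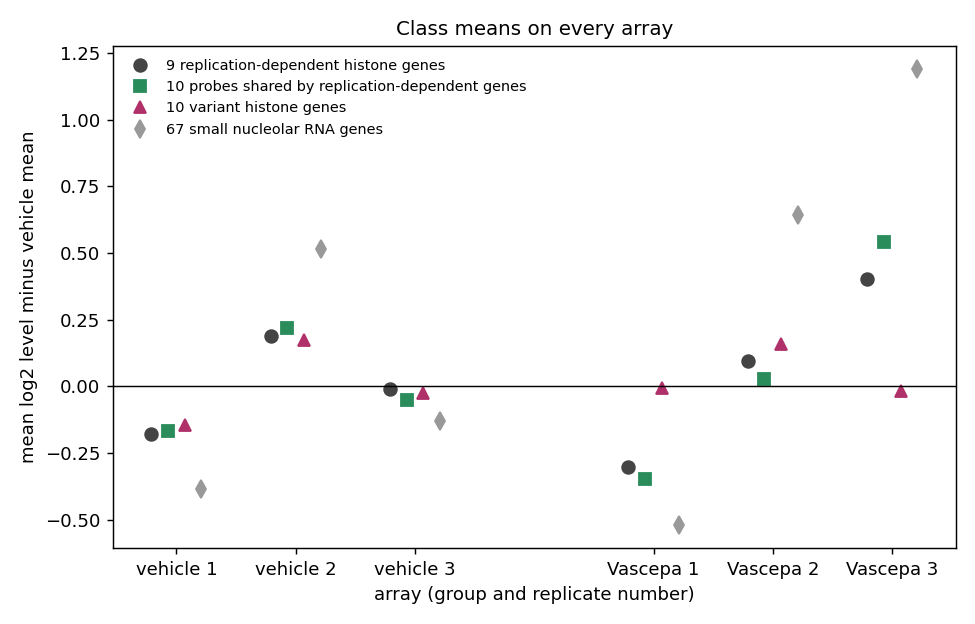
Mean log2 level of each gene class on every array minus the class's vehicle mean (y axis), for 9 replication-dependent genes, 10 probes shared by such genes, 10 variants and 67 small nucleolar RNAs. Vascepa replicate 1 is the lowest and replicate 3 the highest array for all but the variants.

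Genes that make, carry and load histones were read from lists written for them. For 3′ end processing and transcription of histone genes 28 genes were tested, of which 0 passed. Of the 28, 11 were higher and 17 lower, with a median of −0.047, where 39.9% of all genes tested were higher. Lsm11, a subunit of the U7 particle that cuts histone mRNA, read 2.63, 2.39 and 2.69 in vehicle and 2.94, 3.52 and 3.36 in Vascepa livers (0.70 ± 0.21, limma adjusted p = 0.976). Coil, the scaffold of Cajal bodies, differed by 0.38 ± 0.21. Both passed the filter only through their Vascepa means, since their vehicle means of 2.57 and 2.56 lay under the median level. Snrpd3, the brightest of the list, differed by 0.27 ± 0.22.

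Chaperones and loading complexes had 9 of 29 genes higher and 20 lower, with a median of −0.17 and 0 passed. Of all genes tested 39.9% were higher. The 29 genes averaged 5.32, 5.09 and 5.29 in vehicle and 5.36, 5.10 and 4.79 in Vascepa livers. Vascepa replicate 3 was their lowest array and Vascepa replicate 1 their highest. The average of all genes tested was also lowest on Vascepa replicate 3, at 4.78. Ipo4, an importer of histones H3 and H4, differed by −0.64 ± 0.39 and Daxx, an H3.3 chaperone, by −0.33 ± 0.22. Ipo4 read 5.39, 5.18 and 5.59 in vehicle and 5.45, 4.95 and 3.84 in Vascepa livers. Ep400, a remodeller that loads H2A.Z and the brightest of the list, read 7.99, 9.36 and 8.25 in vehicle and 7.71, 9.61 and 10.49 in Vascepa livers (0.74 ± 0.68). Its arrays stood in the same order as H4c12's.

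DNA replication and S phase genes share their time of use with replication-dependent histones. Of the 35 tested, 9 were higher and 26 lower, with a median of −0.094 and 0 passed, where 39.9% of all genes tested were higher. Pcna, the sliding clamp of DNA polymerase, was the brightest at 6.94 in vehicle and 6.81 in Vascepa livers (−0.13 ± 0.17). Gins2, of the replicative helicase, differed by 0.41 ± 0.20 and Dut, which clears dUTP, by −0.38 ± 0.19. Of the 41 genes of this list with a probe, 35 lay at or above the median level. Mki67, Top2a, Ccna2, Lig1, Cdc6 and Orc1 lay under it. Markers of proliferating cells averaged 2.49 to 2.66 on the vehicle arrays and 2.48 to 2.67 on the Vascepa arrays, with 5 of 13 at or above the median level (Aurka at 0.075 ± 0.21, Cdk1 at −0.40 ± 0.21 and Plk1 at 0.19 ± 0.17).

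Hepatocyte markers averaged 11.38 to 11.58 in vehicle and 11.01 to 11.53 in Vascepa livers, with all 12 above the median level and Alb at 13.31 and 13.27. Serpinc1 differed by −0.24 ± 0.20 and F2 by −0.21 ± 0.17. Kupffer cell markers averaged 6.10 to 6.18 in vehicle and 5.75 to 5.97 in Vascepa livers, with 1 of 8 higher and 7 lower and an unadjusted p under 0.05 in 3, all lower, against 1.64% of all genes. They were Vsig4 at −0.53 ± 0.18, Cd68 at −0.54 ± 0.20 and Timd4 at −0.54 ± 0.22, and Timd4 was named after its value was seen. Skeletal muscle markers averaged 2.70 to 2.88 and 2.91 to 3.04, with 5 of 8 at or above the median level (Acta1 at 0.52 ± 0.18 and Mb at 0.41 ± 0.21). Pancreatic acinar markers averaged 2.65 to 2.94 and 2.88 to 3.12 (Clps at 0.52 ± 0.25, Ctrb1 at 0.29 ± 0.21 and Cela1 at 0.14 ± 0.24), and Clps passed the filter only through its Vascepa mean of 3.03, with 2.51 in vehicle. Erythroid markers had 3 of 4, B cell 3 of 6, T and NK cell 4 of 9 and neutrophil markers 3 of 8 at or above it, led in brightness by Slc4a1 (−0.094 ± 0.33), Cd79a (−0.016 ± 0.18), Nkg7 (−0.21 ± 0.26) and S100a9 (−0.26 ± 0.32). The smallest p of these lists belonged to Tspo2 (0.16 ± 0.19), Mzb1 (0.075 ± 0.19), Cd79b (−0.051 ± 0.26), Cd3e (−0.46 ± 0.25), Ngp (0.27 ± 0.27) and Elane (0.19 ± 0.20), of which Tspo2 and Elane had vehicle means under the median level, 2.64 and 2.62. In such bulk samples fewer cells of a type and less RNA per cell cannot be told apart, and the part of other cell types in the histone levels was not tested.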

How the data were processed

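Liver RNA of 6 samples was hybridised to Affymetrix arrays. The authors deposited log2 values, 1 per transcript cluster (probe) and array, made with Affymetrix Expression Console and RMA per the submitters' processing notes. RMA corrects background, quantile-normalizes arrays and compresses dim differences. The array's genome build is not given in the sources used here. Of 41345 probes, 23521 had 1 gene symbol in the platform annotation, 1814 several and 16010 none. Symbols were updated by gene ID for 23328 probes (RefSeq, GRCm38.p6).

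Each gene was read from its brightest single-symbol probe. The 13493 genes whose mean reached the median level over all probes were fitted with limma 3.58.1 in R 4.3.3, Vascepa against vehicle, with Benjamini-Hochberg adjustment over all of them. The fit was tested on simulated data. The number of arrays limits the precision. Members and gene lists were chosen with earlier results of these data known. Classes came from older RefSeq symbols, since the annotation uses current ones (H1f1 to H1f6 were Hist1h1 genes). Members at or above the median were all described on every array, with the brightest gene and the 2 of smallest p from each list.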

Additional observations from a re-analysis of the deposited data

How the results depend on the processing

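No member and no tested variant passed the adjusted threshold under any alternative run. The number of genes past it was 0 in each except with the small nucleolar RNA average as a covariate, where it was 2. At an unadjusted p under 0.05 the 362 genes became 757 with no filter on level, 106 with the 75th percentile filter and 816 with the covariate, and 141 to 2018 when single arrays were left out. The lowest count was without vehicle replicate 3 and the highest without Vascepa replicate 1, with 198 without vehicle replicate 1 and 221 without Vascepa replicate 2. The members' count of 0 of 10 became 1 of 29 with no filter (H4c14, a dim gene at 0.68 ± 0.20), where 3.41% of all genes reached that level. With the covariate it became 1 of 10 (H4c9), against 6.05% of all genes, and it was 0 to 3 when single arrays were left out. The 3 stood without Vascepa replicate 1 (H2bc18 at 0.88, H4c12 at 0.74 and H2bc3 at 0.53), where 15.0% of all genes reached that level. The class medians and their difference moved by less than 1 SD within groups under every alternative, and the replication-dependent median was −0.085 with the 75th percentile filter and −0.063 with the covariate. With every H1f gene counted as variant, a choice made after seeing the data, it was 0.21, and without germ cell genes, also chosen then, 0.012. The replicate numbers gave no uniform pairing of the arrays (r of 0.61, 0.11 and −0.13 for the deviations of same-numbered arrays). The 0.61, for replicate 1, was the highest r of any vehicle array with any Vascepa array. With 3 arrays in a group this check cannot show whether arrays were handled in pairs. With the replicate block 438 genes stood at an unadjusted p under 0.05 and the medians were 0.11 and 0.094. The cause of these changes was not tested.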

Other observations

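Probes shared by several histone genes, which name no single gene, were the brightest histone probes on the array. There were 45 of them, with 42 distinct sets of values, 18 at or above the median level. The brightest, shared by 3 H2B genes, read 10.90, 11.17 and 11.05 in vehicle and 10.73, 11.03 and 11.25 in Vascepa livers. One shared by 3 H2A genes read 10.07, 10.54 and 10.26 in vehicle and 10.01, 10.37 and 10.57 in Vascepa livers. The 10 such probes at or above the median level that carry replication-dependent genes of a single family had a median difference of 0.00089, with 5 higher and 5 lower. The dimmest of the 10, shared by 6 H4 genes, is counted among the 5 higher. It passed the filter on level only through its Vascepa mean of 2.83, with 2.53 in vehicle. Vascepa replicate 3 was their highest array in 9 of 10 cases and Vascepa replicate 1 their lowest in 8 of 10, against 23.0% and 18.2% of all genes tested. The 7 probes annotated to at least 1 H3.3 gene, each shared by 2 or 5 genes, lay between 3.295 and 9.46, with a median difference of 0.12. Their values may not be of H3.3 alone. Their differences ran from −0.19 to 0.58, and the dimmest, at 0.58, was higher on every Vascepa array than on any vehicle array. The probe with a mean of 9.37, at −0.19, was lower on every Vascepa array (9.21, 9.41 and 9.19) than on any vehicle array (9.45, 9.48 and 9.46). Of all genes tested, 8.24% had groups that did not overlap (3.13% higher and 5.11% lower in Vascepa livers).

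Among members under the median level, which were not tested, 12 were higher in Vascepa livers and 7 lower, and the groups did not overlap in 2 of 19, both higher. Of all 8687 genes under that level, 66.0% were higher, and the groups did not overlap in 10.6%, or in 8.23% counting those higher alone. H4c14 read 1.66, 1.64 and 1.48 in vehicle and 1.89, 2.41 and 2.52 in Vascepa livers, and H4c1 read 1.64, 1.51 and 1.69 and 1.88, 1.83 and 2.08. H4f16, an H4 gene with the older symbol Hist4h4 that lies outside the symbol rule, differed by 0.32 ± 0.32.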
